A study of Mus musculus with 8 samples.

Results

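Type A intercalated nuclei were taken from single-nucleus RNA-seq of mouse kidney by 4 transcripts. A nucleus was a member when at least 2 of Slc4a1, Kit and Aqp6 had 1 or more unique molecular identifiers (UMIs, each counting 1 captured transcript) and Slc26a4, the apical chloride-bicarbonate exchanger pendrin of type B and non-A, non-B intercalated cells, had none. Members were chosen by these counts alone, among barcodes in which 500 or more genes and 800 or more UMIs were counted and mitochondrial transcripts made up no more than 2%. The rule found 870 nuclei of 81391, or 1.07%. Levels of these 4 genes are therefore descriptions of the choice, and no test is given for them.

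Intercalated cells lie scattered among the principal cells of the connecting tubule and collecting duct. The type A cell secretes acid: a V-type H+-ATPase in its apical membrane pumps protons into the urine, and the basolateral anion exchanger AE1, the product of Slc4a1, returns bicarbonate to the blood. The type B cell carries pendrin at the apical side and secretes bicarbonate, whereas the principal cell reabsorbs sodium and water through the epithelial sodium channel and aquaporins.

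The libraries came from kidneys of 8 male mice on a C57BL/6J background, 1 mouse per library and 2 libraries in each of 4 groups. Ctrl mice were Bmal1 lox/lox. Their cKOt littermates were Bmal1 lox/lox/Pax8-rtTA/LC-1, in which doxycycline turns on Cre through the Pax8 promoter in the renal tubule. Both genotypes drank doxycycline (2 mg/ml) with sucrose (20 mg/ml) for 2 weeks from 8 weeks of age, were kept in 12 h light and 12 h dark, and were killed at 14 weeks of age at ZT4 or ZT16, that is 4 or 16 h after lights on. Nuclei were isolated from frozen kidney slices that held cortex and medulla and were sorted on DAPI, a DNA stain, so that no cell type was gated. The libraries held 8758 to 10975 nuclei and 36548873 to 54500820 UMIs after filtering.

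The number of members and their share of all nuclei varied between libraries. In Ctrl at ZT4 there were 94 and 134 members, 0.950% and 1.34% of nuclei, and in Ctrl at ZT16 148 and 108, or 1.39% and 1.01%. In cKOt at ZT4 there were 76 and 92 members, 0.733% and 0.918%, and in cKOt at ZT16 91 and 127, or 1.04% and 1.16%. Both cKOt libraries of ZT4 lay below all other libraries, and the ranges of the 2 genotypes at ZT16 overlapped. Exact 95% binomial intervals, which cover counting error only, ran from 0.578% to 0.916% for the lowest library and from 1.18% to 1.63% for the highest. Over both time points the share was 0.962% ± 0.181 (SD, n = 4) in cKOt and 1.17% ± 0.226 (SD, n = 4) in Ctrl, a difference of -0.210 percentage points (two-sided exact permutation test, p = 0.229, where 4 libraries against 4 cannot give less than 0.0286). It was -0.134 without cKOt ZT4 replicate 1 and -0.138 without Ctrl ZT16 replicate 1. Between ZT16 and ZT4 the difference was 0.162 points (exact permutation p = 0.343), and leaving out 1 library gave 0.0775 (without cKOt ZT4 replicate 1) to 0.281 (without Ctrl ZT4 replicate 2). The value was also 0.0814 without Ctrl ZT16 replicate 1. With nuclei thinned to 1500 UMIs before the rule was applied, and the 247 to 1387 nuclei per library below that depth left out, the share was 0.582% ± 0.111 (SD, n = 4) in cKOt against 0.831% ± 0.110 (SD, n = 4) in Ctrl and the exact permutation test gave its smallest p, 0.0286. A nucleus counts only when marker UMIs are captured, so fewer type A nuclei and fewer marker UMIs per nucleus cannot be told apart.

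Within the members, Kit, a receptor tyrosine kinase, was detected in 92.5% of nuclei, with 88.0% to 96.7% by library. Aqp6, an anion-permeable intracellular aquaporin of acid-secreting cells, was detected in 84.6%, and Slc4a1 in 73.6%, with 64.5% to 78.7% by library. All 3 transcripts were present in 441 members, Kit with Aqp6 in 230, Slc4a1 with Kit in 134 and Slc4a1 with Aqp6 in 65. The 3 genes together had exactly 2 UMIs in 29 members, 3 to 5 in 219 and 6 or more in 622, and a median of 8. Just outside the rule lay 1435 nuclei with Kit alone, 443 with Aqp6 alone and 329 with Slc4a1 alone. Atp6v0d2, a subunit of the proton pump that the rule did not use, was found in 86.96% to 92.97% of members of each marker combination and in 7.30% to 9.93% of those just outside. A further 51 nuclei passed the marker part of the rule but had Slc26a4, and 80.39% of these had Atp6v1g3, another pump subunit, against 75.38% to 85.26% in the members.

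The members had a median of 4120 UMIs and 2063 genes, and their summed UMIs ranged from 345797 to 689979 per library. At least 1 of Atp6v1g3, Atp6v0d2 and Foxi1 was found in 846 members, or 97.2%. Of the lists of other kidney cell types, 7 type B genes, Slc4a9 and Oxgr1 among them, had the highest mean in the members, at 1961 to 3371 UMIs per 1000000 by library and 1279% of the level in all other nuclei, with Tldc2 at 0. Proximal tubule genes were at 1385 to 2840, or 26.57% of the level in all other nuclei. Genes of the connecting and distal convoluted tubules were at 512 to 2687, or 22.04%, and exceeded the type B list in Ctrl ZT16 replicate 2, as the proximal list did in Ctrl ZT4 replicate 2. Principal cell genes were at 483 to 644, or 102.7%, and leukocyte genes at 27.8 to 116, or 64.52%. The lists of thick ascending limb, vessels, stroma and podocytes were at 9.33% to 24.12%. All 5 genes of mast cells, which also carry Kit, had 0 UMIs in the members, and stood at 0.142 per 1000000 in all other nuclei. For 1 gene, 0 of 870 nuclei allows a share of up to 0.345% with a UMI, which is no limit on nuclei that express it. Scrublet scored 66 members as doublets (7.59%, against 5.37% of all nuclei), and these were kept. No barcode was a member in 2 libraries, although 24 members carried a barcode that was also in use elsewhere.

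Genes that the rule did not use were compared with type B and principal nuclei of the same libraries. The 1149 type B nuclei had Slc26a4, at least 1 of Slc4a9, Hmx2 and Insrr, and neither Slc4a1 nor Aqp6. The 4274 principal nuclei had at least 2 of Aqp2, Aqp3 and Fxyd4 and none of the 4 genes of the type A rule. UMIs were summed per library and kind, compared by edgeR's quasi-likelihood test with library as a block, and the 10 genes that set the kinds apart were not tested. Levels below are UMIs per 1000000 mRNA UMIs after scaling (CPM), or for lncRNAs UMIs per 1000000 lncRNA UMIs. Because marker genes drew the line between the kinds, genes that travel with those markers had to differ, and the counts describe how type A nuclei differ and not whether they do. Against type B nuclei 953 of 8522 mRNAs were higher (11.2%) and 1165 lower (13.7%). Against principal nuclei 1541 of 11091 were higher (13.9%) and 2219 lower (20.0%). mRNAs that entered the test only through the more numerous principal nuclei could hardly come out higher. The filter thus has a part in the excess of lower genes, also where these shares are set beside a list below.

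**Figure D1:**
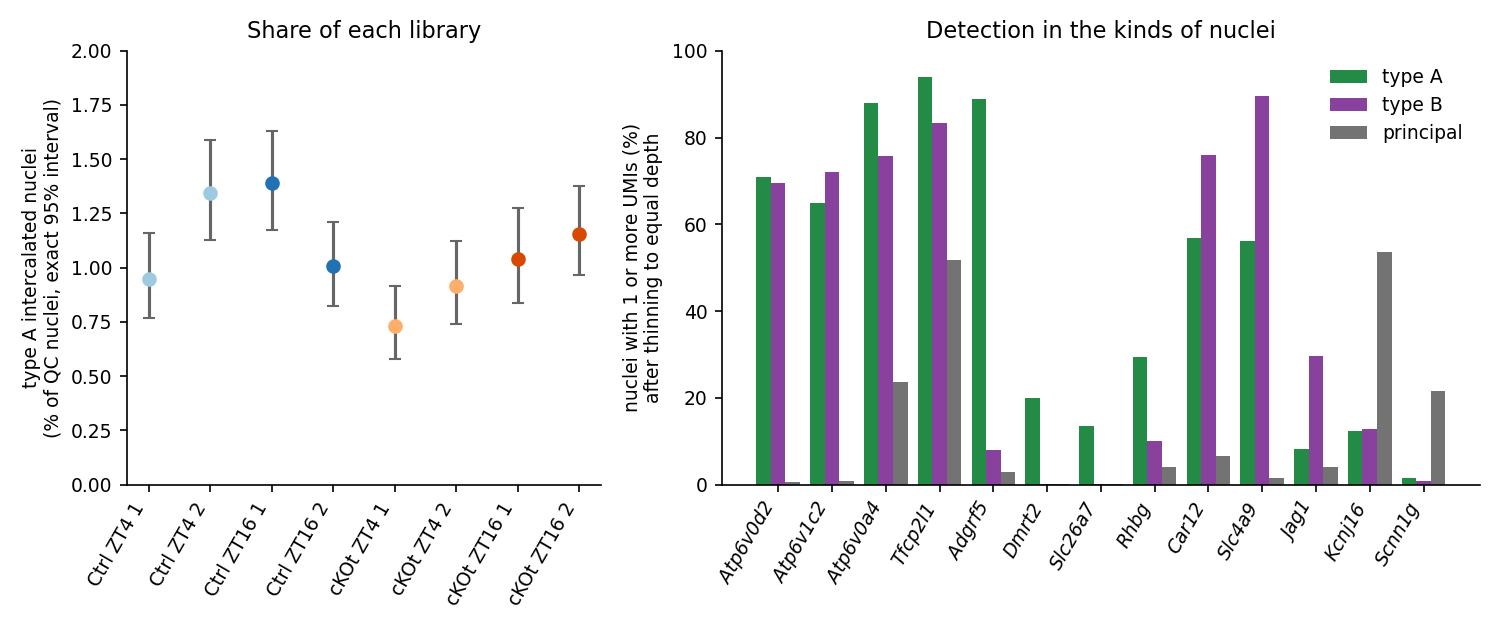
Left, share of nuclei in each of the 8 libraries that met the type A rule (percent), with exact 95% binomial intervals as bars; the 2 cKOt libraries of ZT4 are lowest at 0.733% and 0.918%. Right, percent of type A, type B and principal nuclei with at least 1 UMI of each gene after thinning to 1500 UMIs, with 9, 16 and 59 shallower nuclei left out; Adgrf5 is in 89.0% of type A, 7.9% of type B and 2.8% of principal nuclei.

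Most proton pump subunits were higher in members than in principal nuclei. Of 22 V-ATPase subunits tested against principal nuclei, 14 were higher and 1 was lower, beside 13.9% and 20.0% of all mRNAs. The median log2 difference was 1.60 over the list against -0.07 over all mRNAs. The higher subunits fell into a group of cell-restricted isoforms and a group of housekeeping subunits. Atp6v0d2 stood at 1011 to 1549 CPM in the 8 libraries of type A nuclei and at 3.01 to 8.65 in principal nuclei, a log2 difference of 7.65 ± 0.12 (SE). Atp6v1c2 (6.94 ± 0.15) and Atp6v1g3 (6.35 ± 0.11) showed similar differences. Atp6v1b1 and Atp6v0a4, the subunits whose human counterparts are mutated in distal renal tubular acidosis, were higher by 3.0 ± 0.09 and 2.61 ± 0.08. The shared subunits Atp6v1a, Atp6v1d, Atp6v1h, Atp6v1e1, Atp6v0b and Atp6v0c were higher by 1.57 to 1.88 on the log2 scale. Atp6v0a1, the widely expressed counterpart of Atp6v0a4, was the lower subunit, at -0.28.

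Against type B nuclei, 1 of 21 subunits was higher and 8 were lower (list median -0.03, all mRNAs -0.03), beside 11.2% and 13.7% of all mRNAs. Atp6v0a4 was the higher subunit, at 1599 to 1850 CPM against 1332 to 1687 in type B nuclei (log2 difference 0.17 ± 0.06, adjusted p = 0.0377 by edgeR), and the ranges overlapped. Atp6v1c2 was lower by 0.73 ± 0.08, with 715 to 1056 CPM against 1245 to 1890 and no overlap. Atp6v1g3 was at -0.52 ± 0.08 and Atp6v0d2 at -0.22 ± 0.06. Atp6v1b1 stood at 461.6 CPM in type A and 467 in type B nuclei (log2 difference -0.03 ± 0.08, adjusted p = 0.861 by edgeR).

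**Figure D2:**
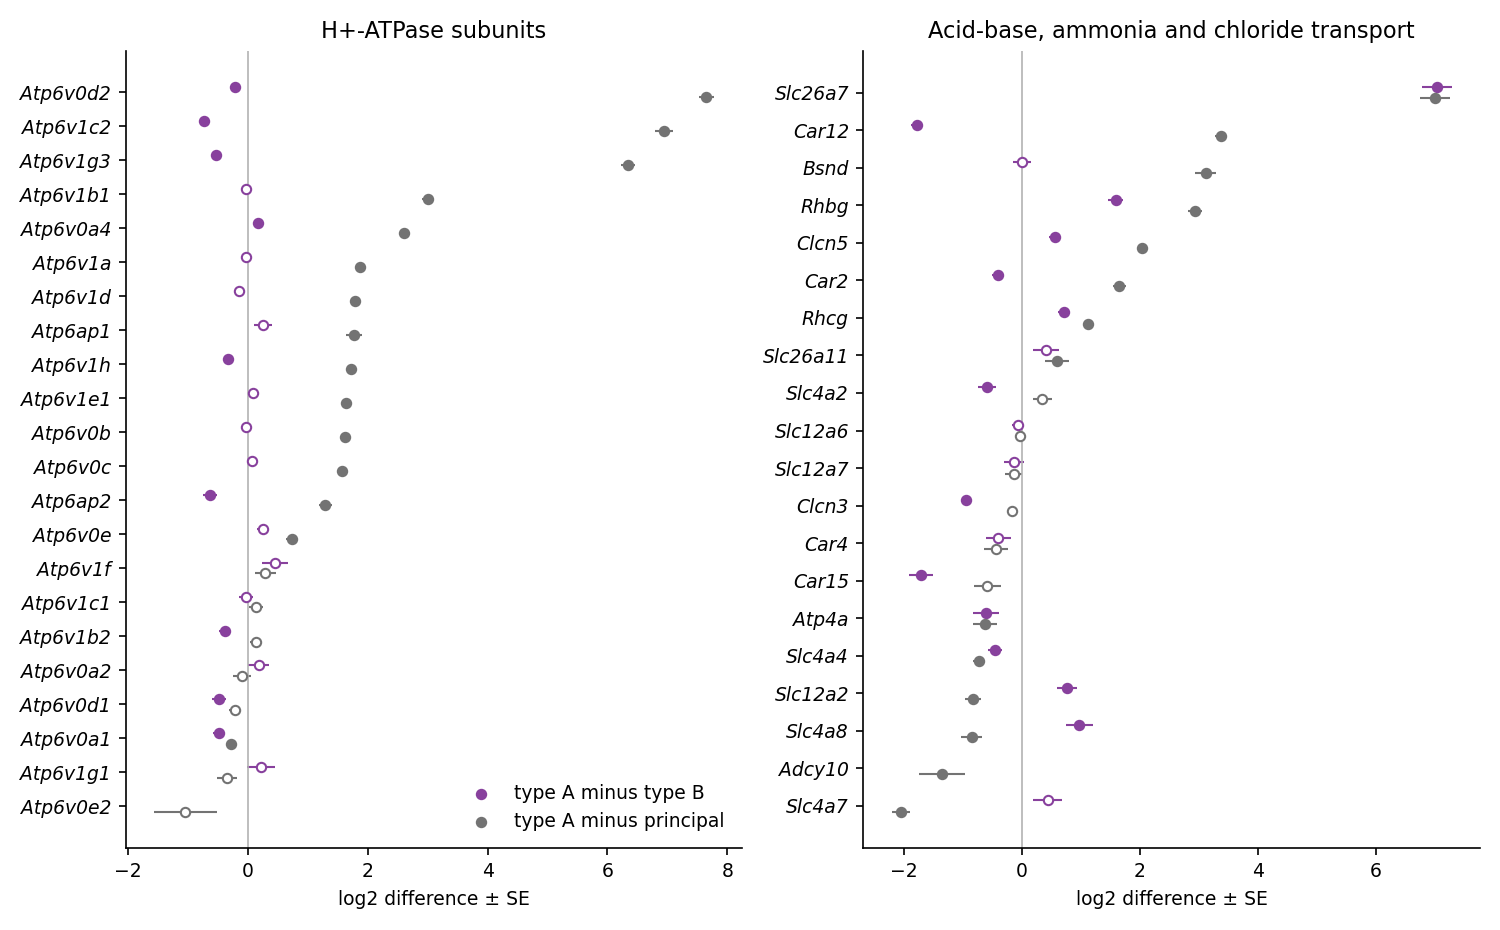
Log2 difference (with its SE as a bar) of type A nuclei from type B nuclei (purple) and from principal nuclei (grey) for proton pump subunits and a selection of transporters, from edgeR; filled points passed an adjusted p of 0.05. Atp6v0d2 lies at 7.65 against principal and -0.22 against type B nuclei, whereas Slc26a7 lies at 7.01 and 7.04.

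Acid-base transporters were compared with type B nuclei next. Among 21 genes tested, 8 were higher and 7 lower in members (list median 0.00), beside 11.2% and 13.7% of all mRNAs. Slc26a7, a basolateral chloride-bicarbonate exchanger and anion channel of acid-secreting cells, stood at 107.7 to 575 CPM by library against 0 to 4.41 in type B nuclei, a log2 difference of 7.04 ± 0.25. The ammonia transporter Rhbg was at 170 to 315 CPM against 42.5 to 137 (1.59 ± 0.13), also without overlap. Its apical relative Rhcg was higher by 0.72 ± 0.09, with overlapping ranges. The chloride transporter Clcn5 (0.55 ± 0.09), the sodium-potassium-chloride cotransporter Slc12a2 (0.76 ± 0.17) and the bicarbonate transporter Slc4a8 (0.98 ± 0.23) were higher too.

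The genes lower in members included carbonic anhydrases, which interconvert carbon dioxide and bicarbonate. Car12, a membrane-bound form, was at 753 to 1151 CPM against 2079 to 4616 in type B nuclei (-1.78 ± 0.10) and Car15 at -1.71 ± 0.20. The cytosolic Car2 differed less, at -0.40 ± 0.10, with overlapping ranges. Clcn3 (-0.94 ± 0.09), Atp4a, Slc4a2 and Slc4a4 (-0.61 to -0.46) were lower too. All 8 proximal tubule genes tested against type B nuclei also had negative differences (list median -0.40), and 2 of them were called. The part of RNA from other cells in the smaller differences was not tested. Against principal nuclei the acid-base list had 10 higher and 6 lower genes of 22 (median 0.16), beside 13.9% and 20.0% of all mRNAs. Car12, lower than in type B nuclei, was 3.38 ± 0.10 above principal nuclei, and Bsnd, an accessory subunit of chloride channels, was 3.12 above them. Slc4a7, a sodium-bicarbonate cotransporter, was lower by 2.05 ± 0.16 on the log2 scale.

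Among listed transcription factors, Dmrt2, which encodes a DM domain protein, had no overlap between the 2 intercalated kinds. It stood at 139 to 259 CPM in type A nuclei and 0 to 3.67 in type B nuclei, a log2 difference of 7.08 ± 0.26. Foxi1, required for intercalated cell identity, stood at 97.6 CPM in type A and 107 in type B nuclei (-0.14 ± 0.12, adjusted p = 0.477 by edgeR) but 5.92 ± 0.22 above principal nuclei. Tfcp2l1, another intercalated cell regulator, was 0.45 ± 0.06 above type B and 1.63 ± 0.09 above principal nuclei, without overlap in either comparison. Of 21 regulators tested against type B nuclei 8 were higher, among them Pax2 (1.09 ± 0.10) and Gata3 (0.87 ± 0.13), and 6 were lower, beside 11.2% and 13.7% of all mRNAs. The Notch ligand Jag1 was at 53.9 to 102 CPM against 295 to 439 (-2.29 ± 0.10), the receptor Notch2 at -1.42 ± 0.20 and the Notch target Hes1 at -0.84, while Notch1 did not pass the test (0.11 ± 0.24, adjusted p = 0.791 by edgeR). Against principal nuclei, Jag1 was higher by 1.11 ± 0.13 and Notch2 lower by 3.45 ± 0.14 on the log2 scale. In that comparison 8 of 24 regulators were higher and 11 lower, beside 13.9% and 20.0% of all mRNAs. Elf5, a principal cell factor, was among the lower at -3.93.

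The next list held receptors and related enzymes. Of 20 genes tested against type B nuclei 8 were higher and 6 lower, beside 11.2% and 13.7% of all mRNAs. The higher included the enzyme genes Pde1c (0.44 ± 0.08) and Ptpn13 (0.72 ± 0.08). The adhesion G protein-coupled receptor Adgrf5 was at 1879 to 2624 CPM against 48.5 to 103 (log2 difference 4.81 ± 0.10), and P2ry14, a UDP-sugar receptor, at 45.8 to 224 against 1.30 to 19.2 (3.54 ± 0.19). Neither range overlapped. The calcium-sensing receptor Casr was lower, at 6.90 to 34.8 CPM against 146 to 496 (-3.74 ± 0.15). Oxgr1, the alpha-ketoglutarate receptor, is known from type B cells and was nonetheless 0.57 ± 0.09 higher in members, with overlapping ranges, and 6.22 ± 0.13 above principal nuclei. The vasopressin receptor Avpr1a was at 22.6 to 84.6 CPM in type A and 30.8 to 94.7 in type B nuclei (-0.36 ± 0.16, adjusted p = 0.125 by edgeR). It was 6.19 ± 0.34 above principal nuclei. Sctr, the secretin receptor, was 0.65 ± 0.13 on the log2 scale below type B and 7.59 ± 0.31 above principal nuclei.

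Sodium and potassium channels of the principal cell were not uniformly low. Scnn1g, the gamma subunit of the epithelial sodium channel, stood at 14.4 CPM against 250.1 in principal nuclei (-4.17 ± 0.15). Scnn1b, the beta subunit, was at 231 CPM against 388.9 (-0.75 ± 0.09), and stood at 169 to 318 CPM against 18.4 to 37.7 in type B nuclei (2.91 ± 0.15). Scnn1a was 0.51 ± 0.11 above principal nuclei. The vasopressin V2 receptor Avpr2 (-4.13 ± 0.26), Hsd11b2, the enzyme that protects the mineralocorticoid receptor from glucocorticoids (-4.97 ± 0.17), and Aqp4 (-5.86 ± 0.16) were low. Thus 7 of 8 principal cell genes tested were lower and 1 was higher, beside 20.0% and 13.9% of all mRNAs. Of potassium transport genes, 1 of 12 was higher than in principal nuclei and 6 were lower, beside 13.9% and 20.0% of all mRNAs. The higher one was the channel Kcnq1 (1.02 ± 0.08), and the lower included Kcnj16 (-2.53 ± 0.13) and Kcnj1 (-2.51 ± 0.18). Kcnq1 (0.71 ± 0.07) and Kcnk1 (1.75 ± 0.25) were the 2 higher of 9 tested against type B nuclei. The 3 lower included Kcnj16 (-0.47 ± 0.14) and Kcnj15 (-0.52 ± 0.18), where 11.2% of all mRNAs were higher and 13.7% lower. The proximal list had a median of -0.40 in that comparison, and its part in these 2 differences was not tested.

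Metabolic and steroid-responsive genes were compared next. Of 24 genes of energy metabolism 10 were higher and 3 lower than in principal nuclei, beside 13.9% and 20.0% of all mRNAs. The higher ones were led by Ppargc1b, a coactivator of mitochondrial genes, at 411 CPM against 83.5 (2.30 ± 0.07). Most others differed by less than 1 on the log2 scale, such as Idh3a (0.88 ± 0.14) and Pkm (0.76 ± 0.10). Against type B nuclei 4 of 22 were higher and 3 lower, beside 11.2% and 13.7% of all mRNAs. Of 8 steroid-responsive genes 5 were higher and 3 lower than in principal nuclei, beside 13.9% and 20.0% of all mRNAs. The higher included Zbtb16 (1.61 ± 0.13) and Fkbp5 (1.07 ± 0.09), and the lower Sgk1 (-2.26 ± 0.14) and Ddit4 (-2.52 ± 0.33). Against type B nuclei 2 of 7 were higher, Zbtb16 (1.04 ± 0.11) and Fkbp5 (0.40 ± 0.10), beside 11.2% of all mRNAs. Pik3r1 (-1.0 ± 0.09) and Errfi1 (-0.50 ± 0.12) were the 2 lower, beside 13.7%. Of 8 immediate early genes 5 were lower than in type B nuclei and 0 higher by edgeR, beside 13.7% and 11.2% of all mRNAs. Among the lower was Egr1, at 1.74 to 64.1 CPM against 41.1 to 237 (-1.81 ± 0.22), with overlap.

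Among all mRNAs, the largest differences from type B nuclei went beyond these lists. Behind Dmrt2 and Slc26a7 came the calcitonin receptor Calcr, with a mean of 275 CPM against 2.25 (log2 difference 6.64 ± 0.33), and the cell adhesion gene Dscaml1 (5.43 ± 0.25). Slc35f1 (5.25 ± 0.21), Nkain3 (5.21 ± 0.27), Pgm5 (5.18 ± 0.19), Zfp536 (4.87 ± 0.31), Adgrf5 and the progesterone receptor Pgr (4.79 ± 0.27) completed the 10 largest. In the other direction the cell adhesion gene Lsamp had a mean of 82.4 CPM in type A nuclei and 9707 in type B nuclei (-6.98 ± 0.19). The potassium channel Kcnq3 was at 0.431 against 549 CPM (-10.14) and the vesicle protein gene Syt7 at 0.653 against 254 (-8.36). The members held a mean of 0.125 UMIs of Kcnq3 and 0.25 of Syt7 per library, so the sizes of these differences are uncertain. Tldc2 had no UMI in 3402319 mRNA UMIs of the members, which made it at least 94.4-fold lower against a floor of 3 UMIs. Hs3st5 (-8.87), 4930469K13Rik (-7.98), Thsd7a (-6.85), Lcp2 (-6.81), Col25a1 (-6.46) and Aldh1l2 (-6.18) were also low. Their means in the members were 0.125 to 4.125 UMIs per library, so these sizes are uncertain too. 4930469K13Rik overlaps Kcnip1 on the same strand and Lcp2 on the opposite strand, so that reads could be split between them.

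Against principal nuclei, the largest difference among mRNAs higher in members was that of Clnk, an adaptor of immune receptor signalling, at 825 to 1520 CPM against 0.357 to 2.51 (9.27 ± 0.15). Pdlim3 (7.76 ± 0.26), Atp6v0d2, Calcr (7.64 ± 0.19), Sctr, the nuclear receptor Rorb (7.40 ± 0.20), Hepacam2 (7.05 ± 0.16), Slc26a7, Atp6v1c2 and Dmrt2 followed. The potassium channel Kcnh5 had no UMI in the members and 138 CPM in principal nuclei, at least 154.0-fold lower against a floor of 3 UMIs. Log2 differences were -7.96 ± 0.25 for Col26a1, -6.27 ± 0.33 for Ros1, -5.86 ± 0.16 for Aqp4 and -5.54 ± 0.16 for Dab1. The members held means of 0.375 (Ros1) to 4.75 (Dab1) UMIs of these per library, so the SE understates the uncertainty. Pak3 was at 0.419 CPM against 39.3, on a mean of 0.125 UMIs per library in the members. Adgra1, Fam83a, Trim61 and Adamts20 had no UMI in the members and means of 4.73 to 9.75 CPM in principal nuclei. These 4 genes entered the test through principal nuclei alone, which held means of 10.4 (Adamts20) to 20.9 (Adgra1 and Fam83a) UMIs per library. Their log2 differences were -6.63 to -5.66 with SE of 3.80 to 5.39. Their sizes, and their place among the 10 largest differences, are therefore uncertain.

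For lncRNAs, 48 of 455 were higher (10.5%) and 110 lower (24.2%) than in type B nuclei. With RLE in place of TMM scaling the counts were 65 and 91, and the median of all lncRNAs moved from -0.21 to -0.09. Gm9871 was at 235 to 642 CPM in the members and had no UMI in type B nuclei, at least 180.0-fold higher. 2610016A17Rik, whose nearest coding gene in the annotation is Dmrt2 on the other strand, was at 88.1 to 136 CPM and also had no UMI in type B nuclei (at least 55.9-fold higher). Gm34240 was higher by 4.91 ± 0.37, and Gm13986 (-6.54 ± 0.24) and Gm43376 (-5.97 ± 0.31), which lies opposite Nbea, were lower. 1700027A15Rik had no UMI in the members, at least 16.7-fold lower. Against principal nuclei 61 of 1049 lncRNAs were higher (5.82%) and 409 lower (39.0%). With RLE the counts were 105 and 249, and the median moved from -0.51 to -0.22. Here too, lncRNAs that entered only through the more numerous principal nuclei could hardly come out higher. Gm12121 led the higher ones, with 2430 to 4093 CPM against 2.63 to 20.2 (8.02 ± 0.18), followed by Gm9871 and 2610016A17Rik. Of the lower ones, 9230110F11Rik had no UMI in the members (at least 39.0-fold lower). Gm39075 was at -7.45 ± 0.46, on a mean of 0.125 UMIs per library in the members, and Gm43727, which lies within Cdk14 on the same strand, had no UMI.

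The members were then compared between genotypes and time points, which asks how Bmal1 deletion in the tubule and the time of day change their transcripts. UMIs of the members were summed per library and fitted by edgeR in 1 model of the 4 groups, and a gene was called at an adjusted p below 0.05. With 2 libraries a group, power was limited. Between cKOt and Ctrl, 27 of 8276 mRNAs were called at ZT4 (0.326%), 16 higher and 11 lower in cKOt, and 13 of 9023 at ZT16 (0.144%), 6 higher and 7 lower. Between ZT16 and ZT4, 25 of 8848 were called in Ctrl (0.283%), 10 higher and 15 lower at ZT16. In cKOt 3 of 8631 were called (0.0348%), 1 higher and 2 lower. The time effect itself differed between genotypes for 6 of 9334 mRNAs (0.0643%). The contrasts share groups: the Ctrl ZT4 libraries enter both the genotype comparison at ZT4 and the time comparison in Ctrl.

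Counts moved with single libraries. The count at ZT4 fell to 11 without Ctrl ZT4 replicate 2 or either cKOt ZT4 library. The count in Ctrl between time points was 9 without Ctrl ZT4 replicate 2, 10 without Ctrl ZT16 replicate 1, 14 without cKOt ZT4 replicate 2 and 38 without cKOt ZT16 replicate 1. The genotype count at ZT16 was 30 without cKOt ZT16 replicate 1, and that between time points in cKOt ran from 1 without cKOt ZT4 replicate 2 to 8 without cKOt ZT16 replicate 2. The number of differing time effects was 1 without cKOt ZT4 replicate 2.

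Clock genes had the smallest adjusted p at ZT4. BMAL1, the product of Arntl, pairs with CLOCK or NPAS2 and drives genes with E-boxes, among them those of the PER, CRY and REV-ERB (Nr1d1, Nr1d2) repressors, and REV-ERB proteins repress Arntl. Arntl, the targeted gene, was at 17.5 and 12.4 CPM in Ctrl at ZT4 and 174 and 162 in Ctrl at ZT16. In cKOt it was at 324 and 327 at ZT4 and 407 and 383 at ZT16. The 4 cKOt libraries were thus the highest and did not overlap the Ctrl libraries. UMIs were counted over the whole gene, and a transcript that lacks the deleted part still counts, so this level does not check the deletion. The log2 difference between genotypes was 4.49 ± 0.31 at ZT4 (adjusted p = 1.27e-09 by edgeR) and 1.22 ± 0.20 at ZT16 (adjusted p = 0.00462, and 0.0684 or 0.0652 without either Ctrl ZT16 library). In Ctrl it rose by 3.54 ± 0.33 between ZT4 and ZT16, in cKOt the difference was 0.28, and the time effects differed by -3.27 ± 0.40 (adjusted p = 0.000164 by edgeR).

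Npas2, the alternative partner of BMAL1, was nearly absent in Ctrl, at 0 and 7.1 CPM at ZT4 and 20.5 and 5.32 at ZT16. In cKOt it stood at 387 and 393 at ZT4 and 342 and 339.6 at ZT16. The log2 difference was 6.30 ± 0.45 at ZT4 and 4.54 ± 0.35 at ZT16 (adjusted p = 1.27e-09 and 2.54e-08 by edgeR). In type B nuclei it was 3.21 and 2.18, and in principal nuclei 3.86 and 2.13; whether the kinds differed was not tested.

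Cry1, a repressor of the clock, was at 17.5 and 8.88 CPM in Ctrl at ZT4 and between 76.7 and 123 in the other 6 libraries. It was therefore low in Ctrl at ZT4 alone. At ZT4 it was higher in cKOt by 2.73 ± 0.44 (adjusted p = 0.00203 by edgeR, but 0.184 without Ctrl ZT4 replicate 2 and 0.0533 without cKOt ZT4 replicate 2). Between ZT4 and ZT16 in Ctrl it rose by 2.79 ± 0.43, a call lost without Ctrl ZT4 replicate 2 (adjusted p = 0.195 by edgeR).

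Nr1d2, which encodes REV-ERB beta, went the other way. It was at 249 and 183 CPM in Ctrl at ZT4, 42.8 and 55.9 in Ctrl at ZT16, 43.4 and 50.1 in cKOt at ZT4 and 2.61 and 11.3 in cKOt at ZT16. It fell in Ctrl by 2.13 ± 0.31 on the log2 scale between time points (adjusted p = 0.000748 by edgeR, and 0.0738 without Ctrl ZT16 replicate 1) and was lower in cKOt at ZT4 by 2.17 ± 0.33 (adjusted p = 0.00117). At ZT16 the difference was -2.62 ± 0.52 (adjusted p = 0.0269), a call that 5 alternatives lost, 4 of them leaving out 1 library, Ctrl ZT16 replicate 1 (0.0780) or 2 (0.148), cKOt ZT4 replicate 2 (0.0587) or cKOt ZT16 replicate 1 (0.154). Per3, a member of the PER family, was at 94.6 and 94.1 CPM in Ctrl at ZT4, 53.0 and 45.2 in Ctrl at ZT16 and 11.3 to 33.4 in cKOt. The difference at ZT4 was -1.81 ± 0.39 (adjusted p = 0.0402 by edgeR), a call lost with DESeq2. Of the 10 further clock and output genes tested there, Per3 among them, DESeq2 called 0. Dbp, an output transcription factor, was at 28.0 and 26.6 CPM in Ctrl at ZT4 and 0 to 5.28 in all other libraries, and fell by 4.36 ± 1.01 between time points in Ctrl (adjusted p = 0.0429 by edgeR).

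Of 16 clock genes, 15 were tested at ZT4 between genotypes, of which 4 were higher and 1 lower (median 0.47, all mRNAs -0.01), beside 0.326% of all mRNAs called. At ZT16 it was 2 higher and 1 lower of 13, beside 0.144% of all mRNAs. In Ctrl between time points it was 3 higher and 2 lower of 14, beside 0.283%. In cKOt 0 of 13 were called between time points by edgeR and by DESeq2, beside 0.0348% of all mRNAs. At an unadjusted p under 0.05 they had 3 and 1, beside 6.16% of all mRNAs by edgeR. Genes without a call included Clock, at 116 and 147 CPM in Ctrl at ZT4 and 200.1 to 294 in the other libraries, and Nr1d1, at 38.5 and 17.8 CPM in Ctrl at ZT4 and 0 to 6.67 elsewhere.

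**Figure D3:**
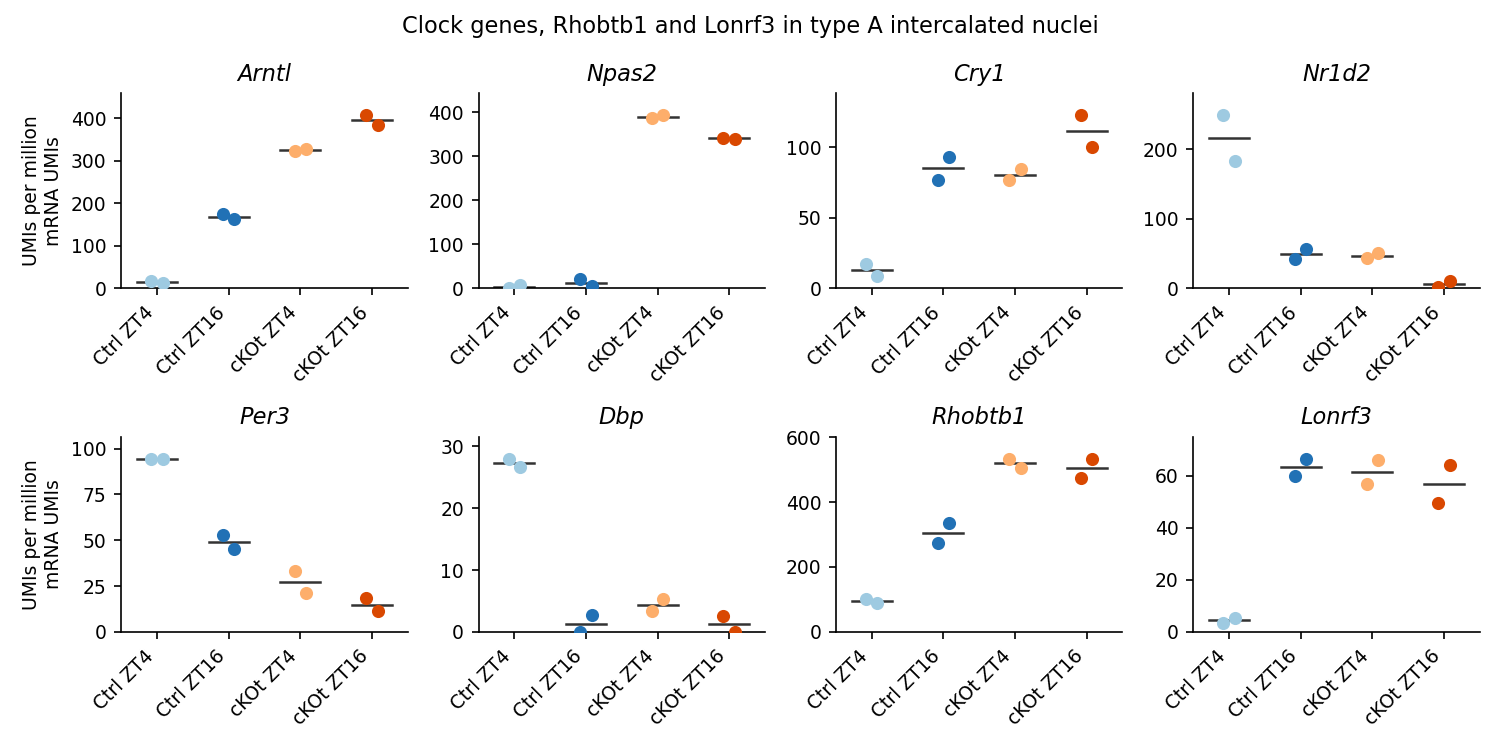
CPM of 8 genes in the members, 1 point per library and a bar at the mean of each group (2 libraries). Cry1 lies at 17.5 and 8.88 in Ctrl at ZT4 and at 76.7 or more in the other groups, and Nr1d2 is highest in Ctrl at ZT4 (249 and 183).

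Among genes outside the clock lists, Rhobtb1 and Lonrf3 were also lowest in Ctrl at ZT4. Rhobtb1, which encodes a BTB domain protein, was at 102 and 88.8 CPM in Ctrl at ZT4, 274 and 335 in Ctrl at ZT16 and 475 to 534 in cKOt. It was higher in cKOt at ZT4 by 2.46 ± 0.22 (adjusted p = 2.08e-07 by edgeR) and rose by 1.68 ± 0.23 between time points in Ctrl (adjusted p = 0.000327). The time effects differed by -1.72 ± 0.30 (adjusted p = 0.00952 by edgeR), a call lost without Ctrl ZT4 replicate 2 (0.187), Ctrl ZT16 replicate 2 (0.0629), cKOt ZT4 replicate 1 (0.0613) or cKOt ZT4 replicate 2 (0.0960). Lonrf3, which encodes a RING finger protein, was at 3.50 and 5.33 CPM in Ctrl at ZT4 and 49.6 to 66.5 elsewhere. The difference at ZT4 was 3.63 ± 0.56 (adjusted p = 0.00117 by edgeR) and that between time points in Ctrl 3.66 ± 0.55 (adjusted p = 0.000748). Both calls were lost without Ctrl ZT4 replicate 2 (0.0590 and 0.0715). The genotype difference of Rhobtb1 at ZT4 was 2.53 in type B and 2.77 in principal nuclei, and that of Lonrf3 0.80 (adjusted p = 0.425) and 2.00 (adjusted p = 0.00269, both by edgeR).

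Promoters of the called genes that had an entry were searched for 3 motifs of the clock. Slc26a7, Kctd16, Sctr, Insrr, Adamtsl1, Slc5a12 and Ndrg1 were among those without an entry and were not searched. In windows of 300 bases (250 before and 50 after the start, RefSeq, GRCm38.p6) of the 42 called genes with an entry, of 54, the canonical E-box CACGTG was in 4 (Cry1, Lonrf3, Rhobtb1 and Sgcd), or 9.52%, against 8.09% of all 27025 genes and 7.15% of all 32851 windows, so the share was near the background. The D-box TTATGTAA, searched on both strands, was in the window of 1 called gene, Per3, with 2 matches (2.38%, against 1.11% of all genes and 0.938% of windows). The REV-ERB element TAGGTCA, also searched on both strands, was in that of 1 called gene, Arntl (2.38%, against 2.97% of all genes and 2.61% of windows). The 250 bases before the start are shown for the 3 genes that were low in Ctrl at ZT4 and have an E-box, and for Per3. Capitals mark the motif, which begins 60 bases before the start in Cry1 (chr10:85185055-85185304, minus strand), 67 in Rhobtb1 (chr10:69212407-69212656, plus strand, 1 of 3 windows of the gene), 45 in Lonrf3 (chrX:36328159-36328408, plus strand), and 205 and 158 in Per3 (chr4:151044666-151044915, minus strand). A match describes the letters and is not a binding site.
Cry1: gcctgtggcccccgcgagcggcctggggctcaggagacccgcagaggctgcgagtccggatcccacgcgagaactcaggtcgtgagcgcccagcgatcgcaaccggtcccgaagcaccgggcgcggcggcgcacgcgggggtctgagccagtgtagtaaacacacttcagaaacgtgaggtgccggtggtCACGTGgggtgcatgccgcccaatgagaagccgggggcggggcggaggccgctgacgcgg
Rhobtb1: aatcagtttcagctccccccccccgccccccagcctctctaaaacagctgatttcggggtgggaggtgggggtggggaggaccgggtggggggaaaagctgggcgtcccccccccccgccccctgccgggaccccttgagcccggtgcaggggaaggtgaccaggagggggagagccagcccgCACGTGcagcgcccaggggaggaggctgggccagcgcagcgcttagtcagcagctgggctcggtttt
Lonrf3: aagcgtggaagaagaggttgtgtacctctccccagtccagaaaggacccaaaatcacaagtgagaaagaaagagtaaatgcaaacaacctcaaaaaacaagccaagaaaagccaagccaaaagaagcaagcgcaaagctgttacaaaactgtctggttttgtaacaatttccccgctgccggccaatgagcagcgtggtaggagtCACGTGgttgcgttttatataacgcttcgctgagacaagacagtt
Per3: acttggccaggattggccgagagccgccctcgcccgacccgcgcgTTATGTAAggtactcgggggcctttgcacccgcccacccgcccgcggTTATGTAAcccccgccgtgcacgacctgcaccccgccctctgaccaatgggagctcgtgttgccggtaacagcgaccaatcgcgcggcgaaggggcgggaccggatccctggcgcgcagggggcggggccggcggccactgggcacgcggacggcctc

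Genes outside the clock list also differed between groups. The naming rule asked that the groups of a contrast not overlap, so a lack of overlap within a contrast restates the choice. Slc26a7, the exchanger that set type A apart from type B nuclei above, was at 172 and 194 CPM in Ctrl at ZT4 and 537 and 585 in Ctrl at ZT16. In cKOt it was at 127 and 164 at ZT4 and 109.6 and 115 at ZT16. The Ctrl libraries of ZT16 were the highest and lay apart from all others. It rose by 1.60 ± 0.20 between ZT4 and ZT16 in Ctrl (adjusted p = 0.000201 by edgeR) and was lower in cKOt at ZT16 by 2.31 ± 0.21 on the log2 scale (adjusted p = 4.86e-07). The time effects differed by -1.98 ± 0.32 (adjusted p = 0.00431 by edgeR), a call lost without cKOt ZT4 replicate 2 (0.149).

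Negr1, a neuronal adhesion gene, was at 700.5 and 759.9 CPM in Ctrl at ZT4, 1189 and 1234 in Ctrl at ZT16, 387 and 472 in cKOt at ZT4 and 329 and 362 in cKOt at ZT16. It was lower in cKOt at ZT16 by 1.81 ± 0.18 on the log2 scale (adjusted p = 1.67e-06 by edgeR), and every Ctrl library lay above every cKOt library. In type B nuclei the log2 difference had the opposite sign, 2.25 (adjusted p = 0.0574), and in principal nuclei it was 0.15 (adjusted p = 0.999), neither of which passed the test in edgeR. Clnk was at 1435 and 1511 CPM in Ctrl and 846 and 826 in cKOt at ZT16 (-0.82 ± 0.16, adjusted p = 0.0335 by edgeR).

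Kctd16, an auxiliary subunit of GABA-B receptors, was at 473 and 426 CPM in Ctrl at ZT4 and 286 and 396 in Ctrl at ZT16. In cKOt it was at 80.1 and 15.8 at ZT4 and 86.1 and 115 at ZT16, below every Ctrl library. The difference between genotypes was -3.31 ± 0.36 at ZT4 (adjusted p = 4.59e-06 by edgeR) and -1.73 ± 0.30 at ZT16 (adjusted p = 0.00674, but 1.00 with DESeq2 and 0.103 without Ctrl ZT16 replicate 2). It was -1.42 and -1.62 in type B nuclei (adjusted p = 0.0109 and 0.00527 by edgeR) and -0.47 and -0.28 in principal nuclei (adjusted p = 0.954 and 0.999). Cadps, which primes vesicles for exocytosis, was at 77.0 to 149 CPM in Ctrl and 3.77 to 18.3 in cKOt, again without overlap. It was lower by 3.32 ± 0.56 at ZT4 and by 3.48 ± 0.49 at ZT16 on the log2 scale (adjusted p = 0.00264 and 0.000416 by edgeR). The call at ZT4 was lost without Ctrl ZT4 replicate 2 (0.0813) or cKOt ZT4 replicate 1 (0.0775) or 2 (0.141).

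The time effect of Sctr differed between genotypes. It was at 186 and 110.1 CPM in Ctrl at ZT4 and 35.9 and 39.9 in Ctrl at ZT16, and at 63.4 and 44.9 in cKOt at ZT4 and 149 and 119 in cKOt at ZT16. It fell by 1.91 ± 0.33 on the log2 scale in Ctrl (adjusted p = 0.00488 by edgeR, but 0.0734 without Ctrl ZT4 replicate 1 and 0.216 without Ctrl ZT16 replicate 1). In cKOt the difference between time points was 1.31 ± 0.33 (adjusted p = 0.232 by edgeR), and at ZT4 that between genotypes was -1.41 ± 0.33 (adjusted p = 0.0761), neither of which passed the test. The time effects differed by 3.22 ± 0.47 (adjusted p = 0.00196, but 0.0948 without cKOt ZT4 replicate 2), and in type B nuclei by 2.32 (adjusted p = 0.0320 by edgeR). At ZT16 Sctr was higher in cKOt by 1.81 ± 0.33 (adjusted p = 0.0108 by edgeR), a call lost with DESeq2 (0.0911) and without Ctrl ZT16 replicate 1 (0.245) or 2 (0.0735).

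Ranbp3l, a Ran-binding protein, was at 940 and 713 CPM in cKOt at ZT16 and at 140.1 to 337 in all other libraries. It was the mRNA that rose between time points in cKOt, by 2.03 ± 0.24 (adjusted p = 7.61e-05 by edgeR), and was higher in cKOt at ZT16 by 1.34 ± 0.22 (adjusted p = 0.00462, and 0.0684 or 0.0652 without either Ctrl ZT16 library). The rise in cKOt was 0.71 in type B and 0.79 in principal nuclei, neither of which passed the test. Insrr, an alkali-sensing receptor tyrosine kinase, was at 42.0 and 32.0 CPM in Ctrl at ZT4 and 110.1 to 159 elsewhere (1.84 ± 0.33 between genotypes at ZT4, adjusted p = 0.00528, and 1.84 ± 0.32 between time points in Ctrl, adjusted p = 0.00442, by edgeR). In type B nuclei, which Insrr helped to choose, the differences were -0.11 and 0.00.

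**Figure D4:**
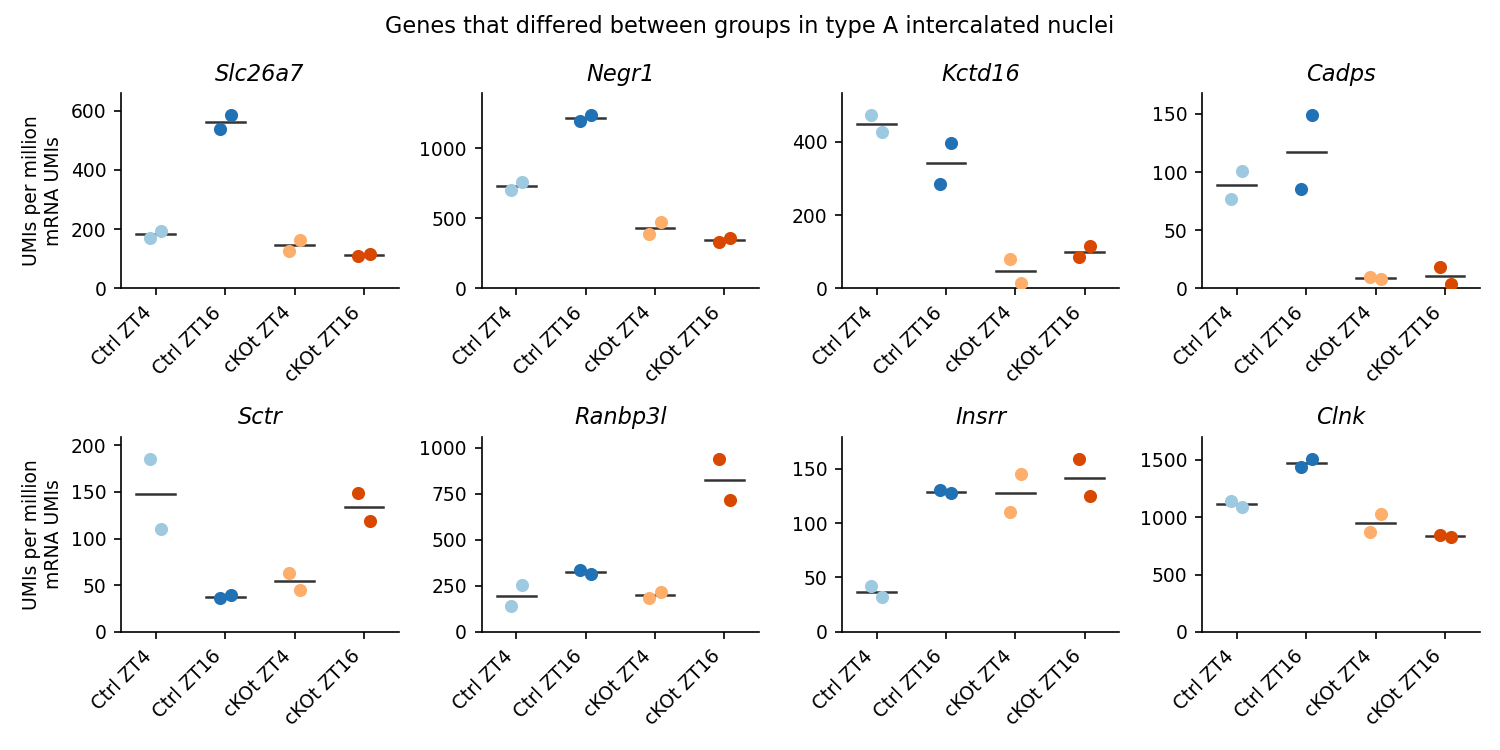
CPM of 8 genes in the members, 1 point per library and a bar at the mean of each group (2 libraries). Slc26a7 is highest in Ctrl at ZT16 (537 and 585), Ranbp3l in cKOt at ZT16 (940 and 713), and Kctd16 and Cadps are lower in every cKOt library than in every Ctrl library.

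No V-ATPase subunit was called between groups. By edgeR 0 of 21 passed in each of the 5 contrasts, and DESeq2 also called 0 in each, beside 0.326%, 0.144%, 0.283%, 0.0348% and 0.0643% of all mRNAs by edgeR in the order given above. At an unadjusted p under 0.05 edgeR had 0, 1, 1, 3 and 1 subunits, beside 6.59%, 5.66%, 6.52%, 6.16% and 4.11% of all mRNAs. Atp6v0a4 stood between 1628 and 1895 CPM in the 8 libraries and Atp6v1b1 between 351 and 597.8, with overlapping groups. Of 22 acid-base transport genes Slc26a7 alone was called by edgeR. In the 5 contrasts edgeR called 0, 1, 1, 0 and 1 of them and DESeq2 0, 2, 2, 0 and 1. At an unadjusted p under 0.05 edgeR had 4, 3, 3, 2 and 4 acid-base genes. By edgeR and DESeq2 alike 0 genes of the transcription factor, potassium transport and energy metabolism lists were called. These lists do not hold the clock factors called above, nor Pck1 and Hao2. At the same unadjusted threshold, which 4.11% to 6.59% of all mRNAs passed, edgeR had 2 to 3 of 21 to 24 transcription factor genes, 1 to 3 of 10 to 11 potassium transport genes and 0 to 2 of 23 to 24 metabolic genes per contrast. Foxi1 stood between 71.2 and 138 CPM and Dmrt2 between 141 and 263. Of the list of receptors and related enzymes, Insrr and Sctr were called.

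Other called genes were lower in cKOt at ZT4. Maml2, a Notch coactivator, was at 574 and 495 CPM in Ctrl and 163 and 253 in cKOt at ZT4 (-1.34 ± 0.22, adjusted p = 0.00232 by edgeR, but 0.156 without cKOt ZT4 replicate 1). The cation channel Trpm3 was at 886 and 790.1 CPM against 290.2 and 449 (-1.17 ± 0.22, adjusted p = 0.00875 by edgeR, but 0.0838 or 0.0523 without either Ctrl ZT4 library and 0.334 without cKOt ZT4 replicate 1). Fyb, an adaptor of leukocytes, was at 38.5 and 37.3 CPM in Ctrl at ZT4 and had no UMI in cKOt at ZT4, at least 8.42-fold lower against a floor of 3 UMIs over the group (adjusted p = 0.0136 by edgeR). That call was lost with DESeq2 (0.254) and without Ctrl ZT4 replicate 2 or either cKOt ZT4 library. Leukocyte genes as a list were at 87.0 and 116 UMIs per 1000000 in Ctrl at ZT4 and at 27.8 to 53.9 in the other libraries, and their part in this difference was not tested.

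Several called genes are known from other kidney cell types. Slc5a12, a lactate cotransporter of the proximal tubule, was at 357 and 541.5 CPM in Ctrl at ZT4, 133 and 199.5 in Ctrl at ZT16, 467 and 440.7 in cKOt at ZT4 and 128 and 206 in cKOt at ZT16. It fell between time points in Ctrl (by 1.48 ± 0.25 on the log2 scale, adjusted p = 0.00397 by edgeR) and in cKOt (by 1.42 ± 0.25, adjusted p = 0.0344). Its level in the members was 27.6% of that in all other nuclei, and without doublets the log2 differences were -0.75 in Ctrl and -1.13 in cKOt and neither call remained (adjusted p = 0.781 and 0.244 by edgeR). Each also depended on single libraries: in Ctrl, ZT4 replicate 2 and ZT16 replicate 1, and in cKOt, both of ZT4 and replicate 1 of ZT16. The proximal genes Slc6a19, Cubn, Nox4, Sugct, Them7 and Gcnt1, all lower at ZT16 than at ZT4 in Ctrl, were at 21.3% to 29.6% of the level in other nuclei, and the proximal list summed to 1646 and 2649 UMIs per 1000000 in Ctrl at ZT4 and 1385 and 1429 in Ctrl at ZT16. The call of Slc6a19 was lost in 6 of 14 alternatives, with DESeq2 (adjusted p = 0.478), without doublets (0.580 by edgeR) and without Ctrl ZT4 replicate 2 (0.486), Ctrl ZT16 replicate 1 (0.319) or 2 (0.124) or cKOt ZT4 replicate 2 (0.0503). The part of RNA from other cells in these differences was not tested.

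Adamtsl1, which encodes an extracellular matrix protein, was at 24.5 and 16.0 CPM in Ctrl at ZT4, 171 and 112 in Ctrl at ZT16, 50.0 and 71.2 in cKOt at ZT4 and 13.1 and 43.4 in cKOt at ZT16. It rose in Ctrl (2.90 ± 0.43, adjusted p = 0.000748 by edgeR) and its time effects differed by -3.92 ± 0.63 (adjusted p = 0.00431). Without the 66 doublets the differences were 0.94 and -2.18 (adjusted p = 0.899 and 0.996 by edgeR). Both calls were also lost without Ctrl ZT4 replicate 2 or Ctrl ZT16 replicate 1. The list of stromal genes summed to 17.4 and 24.6 UMIs per 1000000 in Ctrl at ZT4, 92.5 and 33.9 in Ctrl at ZT16 and 0 to 22.2 in cKOt, and its part in these differences was not tested. Of the other mRNAs, Ddc was higher in cKOt at ZT16 by 2.52 ± 0.52 (adjusted p = 0.0335 by edgeR), a call that 7 of 14 alternatives lost. Ddc is also a gene of the proximal tubule, whose list summed to 1385 and 1429 in Ctrl and 1511 and 2002 in cKOt at ZT16, and its part in the difference was not tested. Col6a6 was higher by 5.65 ± 1.01 (adjusted p = 0.00513, but 0.351 without cKOt ZT16 replicate 2, 0.126 or 0.0652 without either Ctrl ZT16 library and 0.145 with DESeq2). Egfem1 (-4.65 ± 0.83, adjusted p = 0.00488 by edgeR) and Dock2 (-4.09 ± 0.85, adjusted p = 0.0249) fell between time points in Ctrl. Egfem1 was at 137 CPM in Ctrl ZT4 replicate 2 and 21.0 in replicate 1, and its call was lost without the former (0.670), without Ctrl ZT16 replicate 1 (0.312) and with DESeq2 (0.0869). That of Dock2 was lost with DESeq2 (0.942) and without Ctrl ZT4 replicate 2 (0.663), Ctrl ZT16 replicate 1 (0.216) or 2 (0.226) or cKOt ZT4 replicate 2 (0.0548). Dock2 is a leukocyte gene, and the leukocyte list was at 87.0 and 116 in Ctrl at ZT4 against 45.4 and 49.5 in Ctrl at ZT16. The part of leukocyte RNA in its difference was not tested. Igf1r fell by 1.14 ± 0.21 in cKOt (adjusted p = 0.0433), a call lost without any 1 of the 4 cKOt libraries and without doublets (-0.92, adjusted p = 0.112 by edgeR).

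Few lncRNAs passed the test: 2 of 462 between genotypes at ZT4 (0.433%), 3 of 547 at ZT16 (0.548%), 1 of 531 between time points in Ctrl (0.188%), 4 of 505 in cKOt (0.792%), and 1 of 602 for the difference of time effects (0.166%). In cKOt the split between time points was 3 higher and 1 lower, and 1 and 2 with RLE scaling. Malat1 made up 80.0% to 83.1% of lncRNA UMIs, and the median of all lncRNAs shifted by -0.11 at ZT4 and 0.06 at ZT16 between genotypes, by 0.02 in Ctrl and 0.21 in cKOt between time points, and by 0.16 for the difference of time effects. Gm33906 was at 33.0 and 76.9 CPM in Ctrl at ZT4, 18.0 and 29.4 in Ctrl at ZT16, 1073 and 327 in cKOt at ZT4 and 267 and 1104 in cKOt at ZT16. Every cKOt library was above every Ctrl library. It was higher in cKOt by 3.51 ± 0.65 at ZT4 and 4.86 ± 0.74 at ZT16 (adjusted p = 0.00145 and 4.37e-05 by edgeR). The call at ZT4 was lost without doublets (0.358) and without Ctrl ZT4 replicate 1 (0.0747) or 2 (0.589) or cKOt ZT4 replicate 1 (0.117), and that at ZT16 without Ctrl ZT16 replicate 1 (0.126). Its level was 34.5% of that in other nuclei, and at ZT16 the difference was 2.77 in type B and 3.21 in principal nuclei.

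Gm47283, named Erdr1y in the annotation, has a near-identical copy, so its counts are uncertain. It was at 165 and 731 CPM in Ctrl at ZT4, 1116 and 250.1 in Ctrl at ZT16, 16.8 and 42.7 in cKOt at ZT4 and 559.9 and 1454 in cKOt at ZT16. It rose by 4.98 ± 0.77 in cKOt (adjusted p = 5.37e-05 by edgeR), by 3.14 in type B and 3.20 in principal nuclei. It was lower in cKOt at ZT4 (-3.87 ± 0.81, adjusted p = 0.00514 by edgeR), a call lost with DESeq2 (0.724) and without Ctrl ZT4 replicate 2 (0.623). Gm43190 was higher in cKOt at ZT16 (2.93 ± 0.73), 4930533I22Rik fell in Ctrl (-3.39 ± 0.75) and Gm35281 in cKOt (-3.06 ± 0.71), with adjusted p of 0.0382, 0.0223 and 0.0194 by edgeR. Each lost its call in 4 to 7 of at most 14 alternatives. Malat1, higher by 0.28 ± 0.07 in cKOt at ZT16 and by 0.27 ± 0.07 at ZT16 in cKOt, lost its calls in 11 and 9 of 14, and 2210408F21Rik (1.00 ± 0.25) in 11.

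The members were not uniform in Slc4a9, a chloride-bicarbonate exchanger known mainly from type B cells, which was chosen for description after its values were seen. It was detected in 593 of 870 members, or 68.16%. The share was 74.5% and 65.7% in Ctrl at ZT4, 63.5% and 52.8% in Ctrl at ZT16, 82.9% and 75.0% in cKOt at ZT4 and 73.6% and 66.9% in cKOt at ZT16, so the Ctrl libraries of ZT16 were lowest. The level of Slc4a9 differed by 0.80 ± 0.17 between genotypes at ZT16 and by -0.76 ± 0.17 between time points in Ctrl on the log2 scale, and neither passed the test by edgeR (adjusted p = 0.0521 and 0.0601). Of the 5 type B genes tested, Slc4a9 among them, DESeq2 called 1 in the first contrast and 2 in the second, where edgeR called 0 and 1. The share with Slc4a9 thus varied between libraries, and the ranges of Ctrl at ZT4 and cKOt at ZT16 overlapped. A changed mix of members and a changed level of Slc4a9 per nucleus cannot be told apart. The part of the mix in the differences of Sctr, Negr1, Kctd16 and Slc26a7 was not tested beyond the levels within each subset. After thinning, Slc4a9 was in 56.2% of members, 1.6% of principal nuclei and 89.7% of type B nuclei, which it helped to choose. Median UMIs were 4226 in the members with Slc4a9 and 3869 in those without. Over 216 genes that were at least 3-fold above other nuclei or in the lists, the genes that followed Slc4a9 most closely across members were Malrd1 (Pearson's r = 0.514 over 870 nuclei), Oxgr1 (0.475), Pde4b (0.469) and Calcr (0.411). Met (-0.372), Negr1 (-0.371), Nav1 (-0.305) and Chst8 (-0.291) went the other way. These correlations are descriptions, since nuclei of 1 library share its depth and animal.

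The same nuclei split by Slc4a9 give the levels behind these correlations, and so restate the choice of genes. In UMIs per 1000000 over all members, those with and without a UMI of Slc4a9 had 1473 against 81.7 for Malrd1, 763 against 106 for Oxgr1, 334 against 16.7 for Kctd16 and 127 against 4.92 for Sctr. Negr1 was at 448 against 1309, Met at 933 against 1572 and Slc26a7 at 189.5 against 436. Within the positive members Slc26a7 stood at 443 and 407 in Ctrl at ZT16 and at 72.4 to 189 in the other libraries. Within the negative members it stood at 748 and 771 in Ctrl at ZT16 and at 79.9 to 424 in the others. The Ctrl ZT16 libraries were thus the highest in both subsets. Negr1 was lower in cKOt than in Ctrl at ZT16 in both, at 304 and 211 against 749.5 and 622 in positive members and 452 and 631 against 2093 and 1907 in negative members. Kctd16 stood at 435 to 699 in positive members of the Ctrl libraries and 17.2 to 169 in those of the cKOt libraries.

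**Figure D5:**
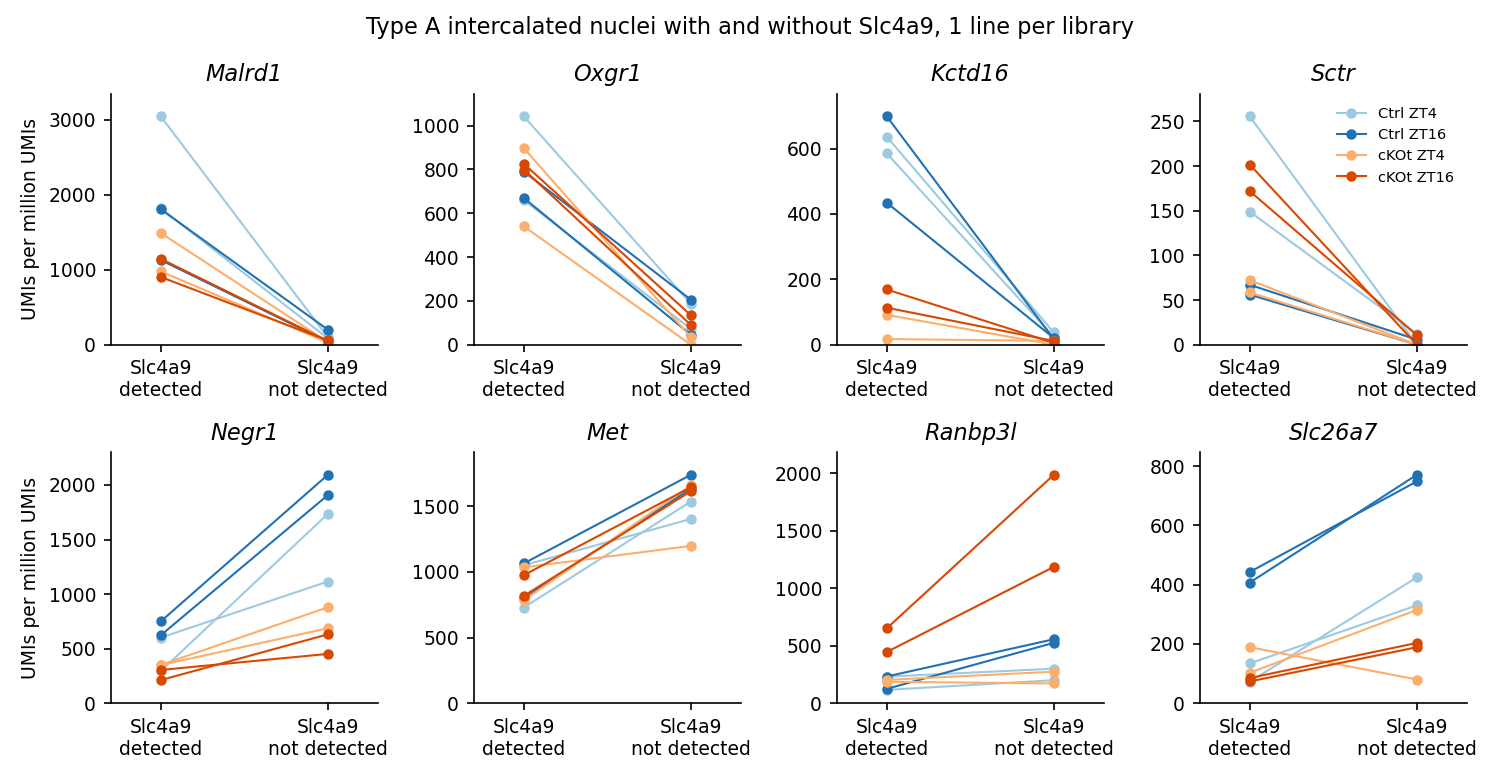
UMIs per 1000000 of 8 genes in members with (left) and without (right) a UMI of Slc4a9, 1 line per library, coloured by group. Genes were chosen on these nuclei, so the slopes are a description. Slc26a7 is highest in the Ctrl ZT16 libraries in both subsets.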

How the data were processed

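Single-nucleus RNA-seq libraries of 8 mouse kidneys were used, 2 in each of 4 groups of genotype and time point taken from the labels. The authors aligned reads with Cell Ranger 7.1.0 and deposited raw UMI counts for each gene in each barcode. Sources differ on the reference (mm10 in the methods, GRCm39 in the labels), and no coordinates of the files are given here. Barcodes were filtered with the limits of the methods (at least 500 genes, at least 800 UMIs, at most 2% mitochondrial UMIs). Their step that drops features found in very few cells was not applied, and the paper's number of nuclei differs slightly. The members and the gene lists were chosen with earlier results of these data known.

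Counts were summed over members per library, which gave 345797 to 689979 UMIs per library and limits what can be seen of transcripts of low level. mRNAs and lncRNAs were tested apart with edgeR 4.0.16 (TMM, quasi-likelihood, R 4.3.3), for genes that reached 5 counts in both libraries of 1 or both groups of the contrast, or in all 8 libraries of at least 1 kind of nuclei, with Benjamini-Hochberg adjustment within contrast and a limit of 0.05. The 4 genes of the rule were left out of the tests between groups, and all genes that chose the kinds of nuclei out of the comparisons of kinds. SE is the log2 difference before shrinkage by edgeR over the square root of the F statistic. Where 1 kind or group had few UMIs, it understates the counting error. Biotypes came from the GRCm39 annotation by identifier (31674 of 32285 features matched, and 41 by symbol). Doublets were scored with Scrublet (scanpy 1.11.5, expected rate 8%) and kept. The fits were tested on simulated data.

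Genes were named by rule: per contrast and direction the 6 called mRNAs and 3 called lncRNAs with the smallest p and groups that did not overlap; per comparison of kinds the 10 mRNAs and 3 lncRNAs with the largest difference, at least 10 counts per library in the higher kind and the same sign in 8 of 8 libraries; and list members. Other called genes were named after their values were seen. Libraries are separate mice. Replicates of a group differed beyond sampling noise (ratio of chi-square to its degrees of freedom, 1.96 to 2.23), and replicate numbers did not pair the libraries. Alternatives were DESeq2 1.42.0, RLE size factors, no filter on low counts, a replicate block, members without doublets, members with Atp6v1g3, Atp6v0d2 or Foxi1, thinning to 1500 UMIs, and each library left out. Intervals of shares are exact binomial. Results on a few genes are not reported here.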

Additional observations from a re-analysis of the deposited data

Results flagged for a closer look

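Time effects differed between genotypes for 6 mRNAs and 1 lncRNA by edgeR's test of the difference itself. On the log2 scale, the change from ZT4 to ZT16 in cKOt minus that in Ctrl was -3.27 for Arntl (adjusted p = 0.000164), a call that held in all 14 alternatives. It was 3.22 for Sctr (adjusted p = 0.00196 by edgeR) and -1.98 for Slc26a7 (adjusted p = 0.00431 by edgeR). Both calls were lost without cKOt ZT4 replicate 2 alone, with adjusted p of 0.0948 for Sctr and 0.149 for Slc26a7 by edgeR. It was -3.92 for Adamtsl1, whose call was lost when doublets were left out (log2 -2.18, adjusted p = 0.996 by edgeR) and without Ctrl ZT4 replicate 2, Ctrl ZT16 replicate 1 or cKOt ZT4 replicate 2 (adjusted p = 0.0938, 0.0535 and 0.206 by edgeR). It was -1.72 for Rhobtb1, whose call was lost without Ctrl ZT4 replicate 2, Ctrl ZT16 replicate 2 or either cKOt ZT4 library (adjusted p from 0.0613 to 0.187 by edgeR). It was -3.76 for Lonrf3, whose call was lost in 7 of 14 alternatives, DESeq2 among them (adjusted p = 0.40). It was 4.40 for Gm47283, whose call was lost with DESeq2 (adjusted p = 0.9995) and without Ctrl ZT4 replicate 2 (log2 2.89, adjusted p = 0.917 by edgeR).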

How the results depend on the processing

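The numbers of mRNAs called at ZT4 between genotypes, at ZT16 between genotypes, between time points in Ctrl, between time points in cKOt and for the difference of the time effects were 27, 13, 25, 3 and 6 with edgeR. With no filter on low counts they were 79, 61, 87, 34 and 17. DESeq2 called 14 at ZT4 and 12 between time points in Ctrl, leaving doublets out gave 15 in Ctrl, and the members with Atp6v1g3, Atp6v0d2 or Foxi1 gave 6 in cKOt. Leaving out each library gave 11 to 36, 9 to 30, 9 to 38, 1 to 8 and 1 to 8. The lncRNAs called were 2, 3, 1, 4 and 1. DESeq2 called 1, 1, 0, 2 and 0, with 14 and 4 at an unadjusted p under 0.05 where it called 0. RLE size factors gave 1 at ZT16. No filter gave 5 at ZT16, 3 in Ctrl and 1 in cKOt. Leaving doublets out gave 1 at ZT4, 0 in Ctrl (37 at an unadjusted p under 0.05 by edgeR) and 1 in cKOt, and the narrower members gave 2 in Ctrl. Leaving out each library gave 0 to 2, 0 to 6, 0 to 3, 1 to 8 and 0 to 3, with 31 to 53 at an unadjusted p under 0.05 by edgeR where 0 were called.

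Replicate numbers did not pair the libraries (correlations of deviations from -0.0846 to 0.154). With the replicate number as a block, 34, 18, 29, 6 and 8 mRNAs and 2, 5, 3, 7 and 2 lncRNAs were called.

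Against type B nuclei 2118 mRNAs and 158 lncRNAs were called, with DESeq2 1286 and 102, and after thinning to 1500 UMIs 1164 and 51. Leaving out each library gave 1767 to 1995 and 144 to 163. Against principal nuclei 470 lncRNAs were called, with DESeq2 293 and after thinning 269, and leaving out each library gave 3380 to 3626 mRNAs and 390 to 474 lncRNAs. The share of members differed between genotypes by -0.210 percentage points, and by -0.249 after thinning (exact permutation p = 0.0286, the smallest that 4 against 4 allow). Leaving out each library gave -0.285 to -0.134, and 0.0775 to 0.281 between time points. No named gene or share changed sign, but the split of lncRNAs between time points in cKOt went from 3 higher and 1 lower to 1 and 2 with RLE size factors. The causes were not tested.

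Of the 56 named results between groups, 37 kept their call with DESeq2, 52 with RLE size factors, 52 with no filter, 53 with the narrower members and 56 with the block. Without doublets only 50 of the 56 had a result, and 37 of these kept their call. With 1 library left out 340 of 448 did. With 2 mice a group and 345797 to 689979 UMIs per library, smaller differences and transcripts of low level were not detectable.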

Other observations

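These genes were called but not named by the rule, and were chosen after their values were seen. Serpinb9, an inhibitor of granzyme B, was at 102 and 107 CPM in Ctrl at ZT4, 255 and 277 in Ctrl at ZT16, 80.1 and 92.4 in cKOt at ZT4 and 180.1 and 115 in cKOt at ZT16. It rose between time points in Ctrl (log2 difference 1.34 ± 0.25 SE, adjusted p = 0.0104 by edgeR). Ndrg1, a stress-responsive gene, was at 151 and 261 CPM in Ctrl at ZT4 and at 774 and 467 in cKOt at ZT4. It was higher in cKOt (1.53 ± 0.26 SE, adjusted p = 0.00365 by edgeR), and in type B nuclei the same log2 difference was 2.16 (adjusted p = 0.00182 by edgeR). Pck1, an enzyme of gluconeogenesis that proximal tubule cells express, was at 91.1 and 110.1 CPM in Ctrl at ZT4 and at 247 and 272 in cKOt at ZT4 (1.34 ± 0.24 SE, adjusted p = 0.00528 by edgeR). Its log2 difference in type B nuclei was 1.24 (adjusted p = 0.135 by edgeR). Hao2, a peroxisomal oxidase, was at 10.5 and 16.0 CPM in Ctrl at ZT4 and at 63.4 and 129 in cKOt at ZT4 (2.78 ± 0.63 SE, adjusted p = 0.0489 by edgeR), and its log2 difference in type B nuclei was 3.94 (adjusted p = 0.0172 by edgeR). Proximal tubule cells also express Hao2. The proximal list summed to 1646 and 2649 UMIs per 1000000 in Ctrl and 2840 and 2361 in cKOt at ZT4, and its part in the differences of Pck1 and Hao2 was not tested. Scd1, a fatty acid desaturase, had 8 and 18 counts in cKOt at ZT4 and 1 to 4 in the other libraries (3.32 ± 0.76 SE at ZT4, adjusted p = 0.0453 by edgeR).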
